A study of Mus musculus with 6 samples.

Results

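The transcripts of 10 cell-surface receptor genes were measured in mouse bone marrow-derived macrophages, and they were chosen by symbol from 46603 gene rows. The genes are Mrc1, Cd163, Marco, Msr1, Stab1, Scarb1, Mertk, Axl, Folr2 and Lrp1, which stand for mannose, scavenger, efferocytosis, folate and lipoprotein receptors. The macrophages came from C57BL/6/J mice aged 7 weeks. They were grown in medium with 10% serum and 20% L929-conditioned medium, a source of macrophage growth factor. On day 6 they were moved to plates with 800000 cells in each well, and 6 h later all wells received medium conditioned by cancer cells. In 3 libraries this medium held its lipids, and in the other 3 it lacked them. The sources used here do not give the cancer cell line, how lipids were removed or how long the cells were exposed. There was no group without cancer cell medium, and the 2 groups share every other condition the labels give. Any other difference that lipid removal made to the medium cannot be told apart from the lack of lipids.

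Scavenger receptors bind modified lipoproteins, polyanions, microbes and cell debris, and carry them into the macrophage for breakdown in lysosomes. The mannose receptor, the product of Mrc1 and also called CD206, takes up glycoproteins with exposed mannose, fucose or N-acetylglucosamine and recycles between the surface and endosomes. Efferocytosis, the uptake of dying cells, uses bridging proteins such as Gas6 and protein S, which link phosphatidylserine on the dying cell to the TAM receptor tyrosine kinases Tyro3, Axl and Mertk. Several of these genes, among them Mrc1, Cd163, Folr2 and Stab1, are widely used as markers of alternatively activated, tissue-resident and tumour-associated macrophages.

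Libraries held 19429022 to 25323053 counts. The 8 macrophage markers checked were all present, with Adgre1, which encodes F4/80, at 2498 to 3010 counts per 1000000 (CPM) and Csf1r at 2617 to 3098 CPM. Of these 8, Itgam (0.56 log2) and Fcgr1 (0.29) were higher with lipids and Cd68 (-0.55) was lower (edgeR adjusted p = 7.72e-05, 0.00815 and 0.000306). Markers of dendritic cells, lymphocytes, mast cells and basophils, red cells and platelets, and epithelium summed to at most 1.64 CPM per list in every library. Neutrophil markers summed to 13.4 to 14.6 CPM with lipids and 15.4 to 17.1 CPM without, nearly all from Mmp8, while Ly6g and Retnlg were at 0 in every library. The 9 stromal and endothelial markers summed to 156 to 164 CPM with lipids and 177 to 208 CPM without. None was at 0 in every library, and 2 were lower (Col3a1 and Kdr) and 1 higher (Cdh5). Cdh5 held few counts, 25, 43 and 21 with lipids and 9, 14 and 14 without (edgeR adjusted p = 0.044). The part of these marker differences in the results below was not tested. In bulk RNA, fewer cells of a type and less RNA per cell cannot be told apart. Replicate 1 of the group without lipids differed most from the libraries of its own group. Its sample quality weight, estimated by limma from how far a library scatters around its group, was 0.277 against 0.65 to 2.11 for the other 5 libraries. The labels do not say whether the libraries of a group stand for different mice or wells. The p-values therefore measure only the scatter among libraries, which may be technical.

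With lipids in the medium the macrophages held more transcript of Mrc1 and of Cd163, which encodes the receptor that clears haemoglobin bound to haptoglobin. They held less transcript of Marco, a class A scavenger receptor that binds bacteria and particles, although this gene was close to the detection limit. Mrc1 averaged 2352 ± 49.2 CPM in the libraries with lipids against 1402 ± 18.7 CPM (SD, n = 3 per group), Cd163 88.6 ± 5.1 against 48.0 ± 3.9 CPM, and Marco 0.321 ± 0.087 against 1.5 ± 0.43 CPM. The other 7 genes did not pass the test, and the groups overlapped for each of them. Of the 10 genes 2 were higher and 1 was lower with lipids, where 4.58% and 6.87% of all 12767 genes tested were higher and lower (edgeR quasi-likelihood test, Benjamini-Hochberg adjusted p below 0.05). In either direction 11.5% of all genes passed, and the groups did not overlap for 30.5% of all genes. The median log2 fold change was 0.043 over the 10 genes and -0.0032 over all genes tested. Marco passed the filter on low counts only through the libraries without lipids, so its share in these counts is no support for a difference.

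**Figure D1:**
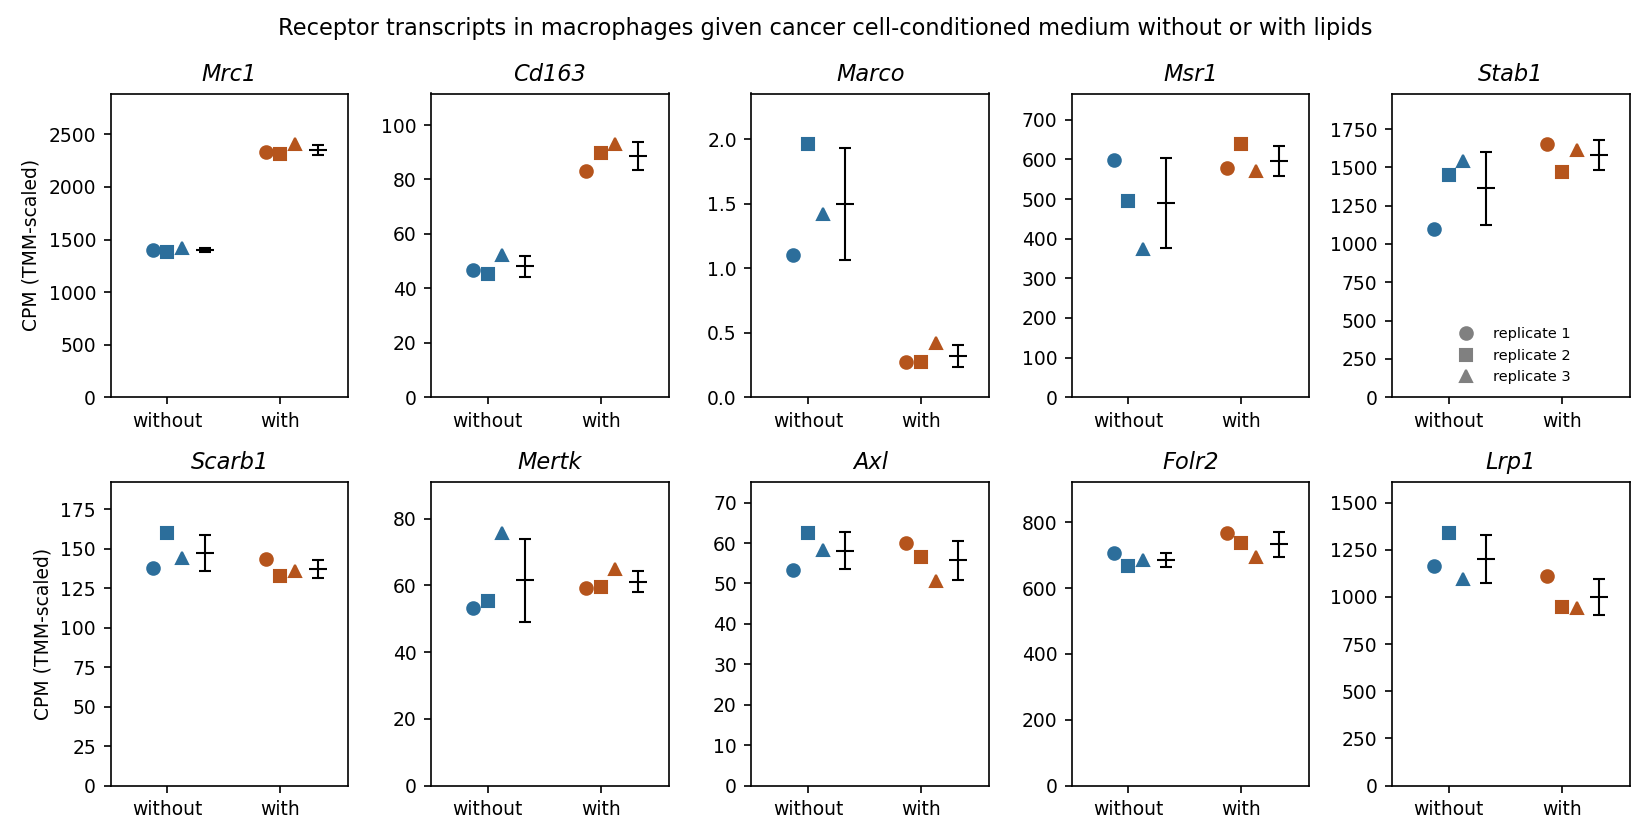
Scaled counts per 1000000 (y axis, from 0) of each receptor gene in the 3 libraries without lipids (blue) and the 3 with lipids (orange), with the mean and SD of each group in black and symbols for the replicate numbers. The groups are apart for Mrc1, Cd163 and Marco and overlap for the other 7 genes.

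The regions just before the transcription starts of the 3 genes that passed are shown so that their letters can be compared. Each is the 250 bases before the RefSeq start on GRCm38.p6, written 5′ to 3′ along the gene. Capitals mark GAGGAA or its reverse complement, a core of sites bound by PU.1, the factor that specifies macrophages.
Mrc1, chr2:14229164-14229413, plus strand: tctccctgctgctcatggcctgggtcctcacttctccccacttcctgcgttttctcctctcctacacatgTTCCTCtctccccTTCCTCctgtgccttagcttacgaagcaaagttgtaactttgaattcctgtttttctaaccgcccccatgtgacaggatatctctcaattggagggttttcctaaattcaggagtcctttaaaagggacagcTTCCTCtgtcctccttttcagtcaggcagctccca
Cd163, chr6:124304401-124304650, plus strand: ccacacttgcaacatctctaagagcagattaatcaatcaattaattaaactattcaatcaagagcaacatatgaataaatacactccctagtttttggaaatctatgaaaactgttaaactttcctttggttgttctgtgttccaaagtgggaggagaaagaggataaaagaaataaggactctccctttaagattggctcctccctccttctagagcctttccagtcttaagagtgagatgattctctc
Marco, chr1:120505025-120505274, minus strand: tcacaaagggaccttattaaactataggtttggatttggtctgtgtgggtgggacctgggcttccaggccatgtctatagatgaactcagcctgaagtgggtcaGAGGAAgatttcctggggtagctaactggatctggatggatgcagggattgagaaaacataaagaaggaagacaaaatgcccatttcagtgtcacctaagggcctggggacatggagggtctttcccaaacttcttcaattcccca
RefSeq promoters were found for 8 of the 10 genes, with 9 starts, since Folr2 had 2, and Msr1 and Scarb1 were not matched. GAGGAA was present in the windows of Mrc1, with 3 copies at 180, 167 and 35 bases before the start, and in those of Marco, Axl and Stab1, which makes 4 of 9 windows. Of all 32851 promoter windows of this length, 23.3% held it on either strand. The window of Cd163 held none of the 9 motifs searched, and its GC content of 36.8% was low, since only 6.74% of all windows were lower. TGCTGA, the core of a MAF recognition element, was in both Folr2 windows and in that of Stab1 (16.1% of all windows), and GGGCGG, the GC box, in those of Mrc1, Mertk, Axl and Lrp1 (32.7%). TGANTCA, the AP-1 site, was in 1 Folr2 window (6.75%). The letters CACGTG (E-box, 6.02%), TTCNNNNGAA (STAT6, 5.85%) and the core promoter element TATAAA (12.4%) were in none of the 9 windows. For the nuclear receptor LXR the letters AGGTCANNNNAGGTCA (0.0152% of all windows) were searched, and for PPAR the letters AGGTCANAGGTCA (0.0335%), and neither was in these windows. Both strands were searched, and in these windows no motif overlapped another. The matches describe the letters only.

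Mrc1 lies on chromosome 2 (14229392 to 14332057, GRCm38, plus strand), and its 29 exon blocks cover 6371 bases. Counts were 51536, 60209 and 51434 in the libraries with lipids and 26601, 26097 and 30948 in those without. Scaled, these were 2332, 2316 and 2408 CPM against 1400, 1385 and 1422 CPM, so every library with lipids lay far above every library without. The log2 fold change was 0.75 (SE 0.05, edgeR adjusted p = 1.49e-05), a ratio of means of 1.68. Within a group the highest library was at most 1.04 times the lowest, the smallest spread of the 10 genes on this scale. Mrc1 took 0.238% to 0.248% of all counts with lipids and 0.134% to 0.139% without, and ranked 27th and 57th among the tested genes by CPM. It made up 34.4% to 36.6% of the counts of the 10 receptor genes with lipids and 24.5% to 26.6% without. When the test asked for more than a 1.5-fold change, Mrc1 did not pass (edgeR adjusted p = 0.124). The microRNA gene Mir511 lies in an intron of Mrc1 on the same strand and held 2 counts over all libraries, in libraries made with an mRNA kit.

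Cd163, on chromosome 6 (124304656 to 124330527, plus strand, 16 exon blocks), was a much rarer transcript. It had 1835, 2334 and 1986 counts with lipids and 885, 850 and 1140 without. In CPM the libraries with lipids stood at 83.0, 89.8 and 93.0 and the others at 46.6, 45.1 and 52.4, again without overlap. This log2 fold change was 0.88 (SE 0.08, edgeR adjusted p = 4.44e-05), or 1.84 times by the means, and it also passed the test against a 1.5-fold change (edgeR adjusted p = 0.0352).

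Marco, on chromosome 1 (120474538 to 120505024, minus strand, 17 exon blocks), was detected by few counts, with 6, 7 and 9 in the libraries with lipids and 21, 37 and 31 in those without. Its levels of 0.272, 0.269 and 0.421 CPM with lipids were above the 0.118 to 0.154 CPM that 3 counts, the limit a count of 0 allows, stand for in these libraries. That limit covers counting error only. Without lipids the levels were 1.11, 1.96 and 1.43 CPM, all higher. The fold change was -2.22 log2 (SE 0.32, edgeR adjusted p = 0.00143), 4.67 times lower by the means. Because Marco entered the test only through the group where it was high, it had to differ, and this p and the range of -1.99 to -2.44 with each library left out in turn are descriptions, not support.

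Class A, B and H scavenger receptors other than Marco did not pass. Msr1, the class A receptor SR-A that takes up modified low-density lipoprotein (LDL), on chromosome 8 (39581685 to 39642673), stood at 578, 639 and 572 CPM with lipids and at 599, 495 and 373 CPM without. The libraries with lipids were close together, while those without ranged 1.61-fold, and replicate 1 without lipids lay among the libraries with lipids. Its log2 fold change was 0.29 (SE 0.13, edgeR adjusted p = 0.198). Leaving out that replicate gave 0.46, which passed (edgeR adjusted p = 0.00216), and leaving out replicate 3 of the same group gave 0.13. Msr1 also passed with sample quality weights (limma-voom adjusted p = 0.00871) and with no filter on low counts (edgeR adjusted p = 0.000188). Both settings passed more genes in general than the main fit, which had 585 higher and 877 lower. The weights gave 1450 and 1919, and no filter 1009 and 1243. With no filter the edgeR adjusted p of Mrc1 also fell, from 1.49e-05 to 9.5e-34, at nearly the same fold change. Stab1, or stabilin-1, a class H receptor that clears matrix proteins and binds phosphatidylserine, on chromosome 14 (31139013 to 31168641), stood at 1652, 1470 and 1616 CPM with lipids and at 1096, 1449 and 1544 CPM without. Here replicate 1 without lipids was the low library, replicate 2 lay just below the libraries with lipids, and replicate 3 lay among them. The change was 0.21 on the log2 scale (SE 0.11, edgeR adjusted p = 0.242) and 0.082 once that library was left out. It passed only with no filter on low counts (edgeR adjusted p = 0.0055). Scarb1, the class B receptor SR-BI that exchanges cholesterol esters with high-density lipoprotein, on chromosome 5 (125277087 to 125341094), stood at 144, 133 and 136 CPM with lipids and at 138, 160 and 144 CPM without. The groups overlapped, at -0.10 log2 (SE 0.07, edgeR adjusted p = 0.379).

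Among the receptors for dying cells, neither TAM kinase passed. Mertk, on chromosome 2 (128698956 to 128802894), stood at 59.1, 59.4 and 64.8 CPM with lipids and at 53.4, 55.3 and 75.8 CPM without. The third library without lipids was the highest of all 6 and the other 2 of its group were the lowest. Axl, on chromosome 7 (25757273 to 25788705), stood at 60.0, 56.7 and 50.5 CPM with lipids and at 53.4, 62.6 and 58.3 CPM without, with the groups intermixed. The log2 fold changes were -0.012 (SE 0.12) for Mertk and -0.06 (SE 0.08) for Axl, with edgeR adjusted p-values of 0.964 and 0.694. Both values turned positive when libraries were scaled by their totals alone. That scaling also moved the median log2 fold change over all genes, from -0.0032 to 0.074. The count of Mertk divided by that of Axl in the same library was 0.986, 1.05 and 1.28 with lipids and 1.0, 0.884 and 1.30 without. The mean log2 ratio differed by 0.069 between groups (exact two-sided permutation p = 0.8, where 3 against 3 cannot go below 0.1). Tyro3, the remaining TAM kinase, was near the detection limit, with means of 0.529 ± 0.159 CPM for medium with lipids and 0.606 ± 0.069 CPM for medium lacking them (SD, n = 3 each).

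Folr2 and Lrp1 were abundant. Folr2, folate receptor beta, on chromosome 7 (101839988 to 101857194), stood at 769, 737 and 694 CPM with lipids and at 706, 666 and 684 CPM without. The 2 groups overlapped only between their nearest libraries, and the log2 fold change was 0.097 (SE 0.06, edgeR adjusted p = 0.321). An antisense gene, Gm10602, covers 63.1% of the exonic bases of Folr2 and held 1152 counts against 91822. Lrp1, a large endocytic receptor for apolipoprotein E, protease complexes and calreticulin on dying cells, on chromosome 10 (127538161 to 127621148), stood at 1112, 947 and 943 CPM with lipids and at 1165, 1341 and 1097 CPM without. Only replicate 1 with lipids reached into the range of the other group. Its log2 fold change was -0.26 (SE 0.09, edgeR adjusted p = 0.0791). The change passed with DESeq2 (adjusted p = 0.0458), with sample quality weights (limma-voom adjusted p = 0.00335) and with no filter on low counts (edgeR adjusted p = 0.000719). It also passed when replicate 1 or replicate 3 of the libraries lacking lipids was dropped (edgeR adjusted p = 0.0234 and 0.0301). Over all genes the weights gave 1450 higher and 1919 lower and no filter 1009 and 1243, against 585 and 877 in the main fit.

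**Figure D2:**
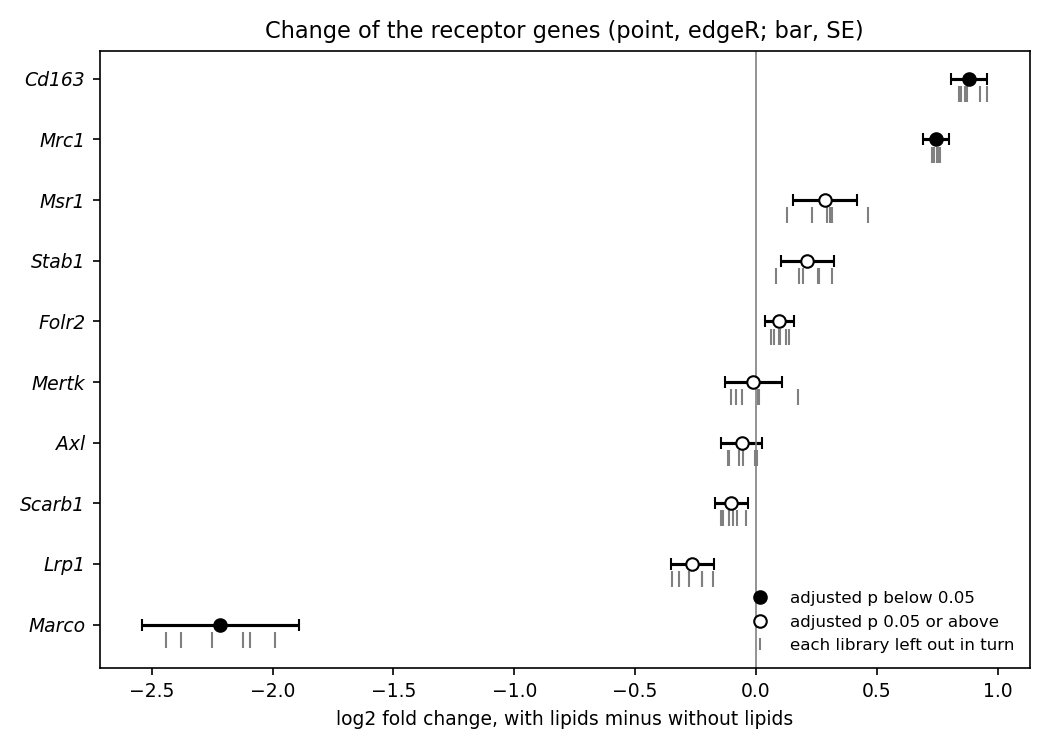
Log2 fold change (x axis, with lipids minus without) of each receptor gene as a point with its SE, filled where the edgeR adjusted p was below 0.05, and grey ticks for the value with each library left out in turn. The ticks of Mrc1 and Cd163 lie above 0 and those of Marco below, while the ticks of Mertk and Axl lie on both sides.

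The ratio of Mrc1 to Msr1 counts, which needs no scaling between libraries, was 4.04, 3.63 and 4.21 with lipids and 2.34, 2.80 and 3.82 without. All but the third library without lipids lay below every library with lipids. The mean log2 ratio was 1.98 ± 0.11 with lipids and 1.55 ± 0.36 without (SD, n = 3 each), a difference of 0.44 (exact two-sided permutation p = 0.2).

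Spread within a group differed among the genes. With lipids the SD was 2.09% to 9.67% of the mean for the 9 genes other than Marco. Without lipids it was 1.34% for Mrc1 and 2.89% for Folr2, but 23.2% for Msr1, 20.2% for Mertk and 17.3% for Stab1. Msr1 and Stab1 ranked the 3 libraries without lipids in opposite order. Whether the spread itself differed between groups was not tested.

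Per transcript length the 10 genes spanned a wide range. Reads per kilobase of exon per 1000000 reads (RPKM) averaged 459 for Folr2, 295 for Mrc1, 143 for Stab1, 85.5 for Msr1 and 62.1 for Lrp1 over the 6 libraries. Scarb1 followed at 16.8, Mertk at 14.1, Cd163 at 12.5 and Axl at 11.3 RPKM, and Marco was last at 0.472 RPKM. Neighbours in this order did not overlap in either group, except Msr1 and Lrp1, and Scarb1 and Mertk, whose RPKM overlapped in the libraries without lipids. Cd163 changed place with the medium. With lipids its level of 15.2 to 17.0 RPKM was above Mertk (13.6 to 14.9) and Axl (10.0 to 11.9) in all 3 libraries, and without lipids its 8.26 to 9.59 RPKM was below Mertk (12.3 to 17.5) and Axl (10.6 to 12.4) in all 3.

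**Figure D3:**
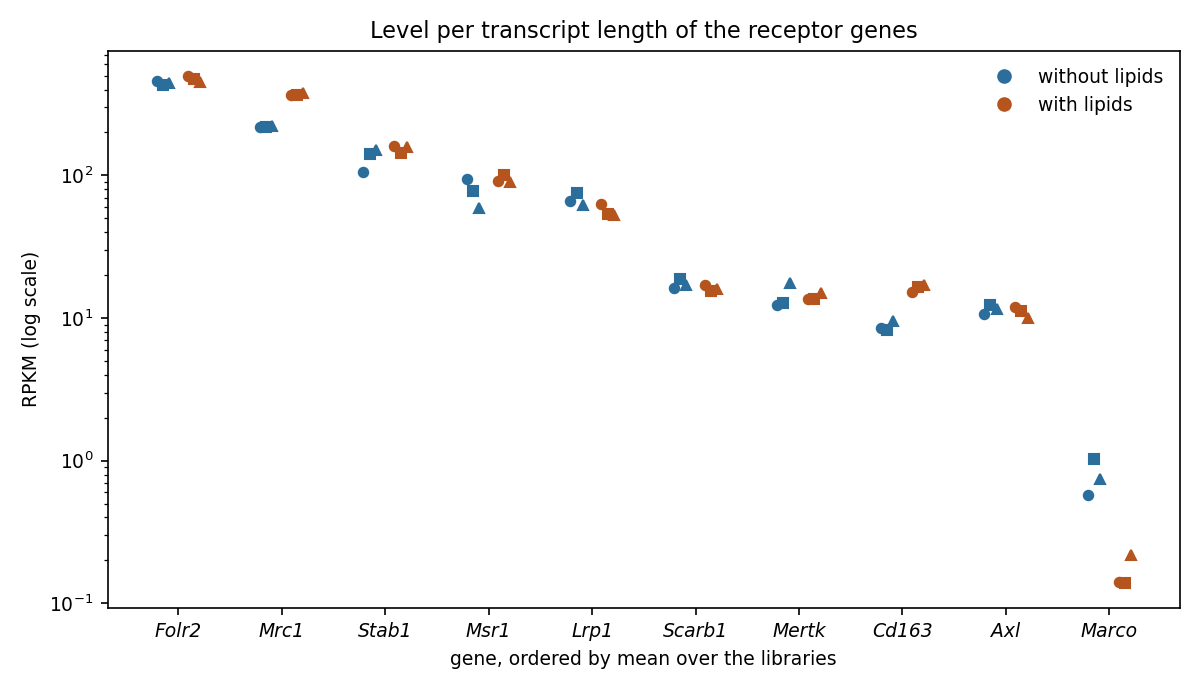
Level per transcript length (y axis, RPKM on a log scale) of the receptor genes in each library, ordered by the mean over the libraries, blue without and orange with lipids. Folr2 and Mrc1 stand highest, Marco lowest, and Cd163 lies above Mertk and Axl with lipids and below both without.

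By Pearson correlation of log2 CPM over the 6 libraries, the protein-coding genes most like Mrc1 were Prune2 (0.998), Eps8 (0.997) and Kmt2e (0.997), and those most like Marco were Slc11a2 (0.999), Spg21 (0.997) and C77080 (0.996). Slc11a2 encodes the iron transporter DMT1, and Eps8 an adaptor of growth factor receptors and actin. Eps8 was higher with lipids by 0.66 log2 and Slc11a2 lower by 0.59 (edgeR adjusted p = 3.19e-05 and 0.000401). With so few libraries in 2 groups, 238 of 11606 genes correlated with Mrc1 above 0.95 and 357 with Marco, so these names describe likeness only.

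Genes that work around the receptors were taken from 10 lists of relatives, ligands, uptake machinery and regulators. Of 143 genes listed 127 were tested, and 13 were higher (10.2%) and 17 lower (13.4%) with lipids, beside 4.58% and 6.87% of all genes. The lists were chosen with earlier results of these data known, so these shares are descriptions, not support. The median log2 fold change of the 127 genes was -0.0021. Scaled by library totals alone, 24 were higher and 14 lower, and over all genes 1241 and 596 in place of 585 and 877. With replicate 1 of the medium lacking lipids dropped, 22 were higher and 36 lower, and over all genes 1566 and 1975. The larger list counts given below for that setting stand beside this rise over all genes. With any 1 library with lipids dropped, 219 to 263 genes were higher and 423 to 488 lower over all genes. With replicate 2 of the medium lacking lipids dropped, 244 were higher and 482 lower. Lost calls and smaller list counts given below for those settings stand beside this fall over all genes.

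Other scavenger receptors held 1 lower gene and 0 higher among 10 tested, with 0 higher also at an unadjusted p below 0.05 by edgeR and by DESeq2 after adjustment. With replicate 1 of the medium lacking lipids dropped, 4 were lower. The lower gene was Cd68, or macrosialin, a lysosomal glycoprotein of macrophages, at 1401 ± 30 CPM with lipids and 2053 ± 144 CPM without (-0.55 log2, edgeR adjusted p = 0.000306). Cxcl16, a scavenger receptor that is also a chemokine, was at -0.20 and Cd5l, a secreted scavenger receptor domain protein, at -0.20, and neither passed (edgeR adjusted p = 0.132 and 0.237). Both rested on single libraries lacking lipids, since they were at -0.27 and -0.29 and passed without replicate 1 (edgeR adjusted p = 0.00635 and 0.0153), and at -0.11 and -0.049 without replicate 3. Cxcl16 overlaps Zmynd15 on the other strand. The fatty acid and lipoprotein receptor Cd36 averaged 1558 ± 37 CPM with lipids against 1513 ± 184 CPM.

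Relatives of the mannose receptor held 1 higher and 1 lower gene among 10. Clec10a, a galactose-type lectin, was higher at 22.4 ± 1.6 CPM against 16.1 ± 1.6 CPM (0.48 log2, edgeR adjusted p = 0.00947), and Clec7a, or Dectin-1, was lower at 30.9 ± 2.5 CPM against 42.6 ± 6.1 CPM (-0.47 log2, edgeR adjusted p = 0.0163). Both calls were lost when replicate 1 with lipids was dropped (edgeR adjusted p = 0.0617 and 0.0916), and that of Clec7a also when replicate 3 was (0.0587). With replicate 3 of the other group dropped, 4 genes of this list were higher, and with library totals alone 3 were. Mgl2, a close copy of Clec10a with which reads may be shared, was near the detection limit at 0.824 ± 0.048 and 0.366 ± 0.273 CPM. The paralogue Mrc2, which binds collagen, was at 2.96 ± 0.19 and 3.15 ± 1.07 CPM (SD, n = 3 each).

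The LDL receptor family held 2 lower genes and 0 higher among 11, with 0 higher also at an unadjusted p below 0.05 by edgeR and by DESeq2 after adjustment. Lrp12 changed by -0.35 log2 (edgeR adjusted p = 0.004) and Lrp4 by -0.49 (edgeR adjusted p = 0.0107), and the call for Lrp4 was lost when replicate 1 or 2 with lipids, or replicate 2 of the others, was dropped (edgeR adjusted p = 0.0506 to 0.0665). With replicate 1 of the medium lacking lipids dropped, 4 were lower. Lrpap1, the chaperone of Lrp1 in the secretory pathway, was at -0.12 log2 (edgeR adjusted p = 0.197).

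Other efferocytosis receptors and their adaptors held 5 lower genes and 1 higher among 14. The higher one was Itgam, the integrin alpha chain of complement receptor 3, at 1504, 1514 and 1499 CPM with lipids and 1045, 999 and 1018 CPM without (0.56 log2, SE 0.05, edgeR adjusted p = 7.72e-05). Lower were Itgb3, the beta chain that pairs with the integrin alpha chain Itgav, at -0.95 log2, Itgax at -0.99, the phosphatidylserine receptor Cd300a at -0.37, Trem2, a lipid-sensing receptor, at -0.34, and its adaptor Tyrobp at -0.23. Itgav was at 0.20 (edgeR adjusted p = 0.252). Dropping any 1 of the libraries with lipids, or replicate 2 of the others, left 3 lower, as did scaling by library totals alone.

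Bridging ligands and opsonins moved both ways, with 2 higher and 3 lower of 11. Pros1, which encodes protein S, a ligand of Mertk, stood at 89.0, 90.1 and 91.0 CPM with lipids and at 59.0, 59.0 and 71.6 CPM without (0.51 log2, SE 0.08, edgeR adjusted p = 0.00218). Thbs1, thrombospondin-1, was higher by 0.60 log2 (edgeR adjusted p = 0.000562). Lgals3, galectin-3, averaged 3788 ± 116 CPM with lipids against 6681 ± 307 CPM (-0.82 log2, edgeR adjusted p = 1.79e-05), and Anxa1 and Mfge8, which bind phosphatidylserine, were lower by 0.46 and 0.57. Gas6, the ligand of all 3 TAM kinases, stood at 905, 839 and 891 CPM with lipids and at 796, 1055 and 1127 CPM without, on either side of the other group, and did not pass (edgeR adjusted p = 0.326). With replicate 1 of the medium lacking lipids dropped, 6 were lower, where 1975 in place of 877 of all genes were lower.

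Clathrin and endocytic adaptor genes held 5 higher and 2 lower members among 18. Dab2, which couples LDL receptor family members to clathrin, stood at 3032, 2966 and 2986 CPM with lipids and at 1916, 1859 and 1743 CPM without. Its log2 fold change was 0.70 (SE 0.06, edgeR adjusted p = 3.37e-05), and the groups were far apart. Picalm, a clathrin assembly protein, was higher by 0.50 log2, Eps15 by 0.41, Ap2a2, a subunit of the AP-2 adaptor, by 0.40, and the clathrin heavy chain Cltc by 0.26 (edgeR adjusted p = 0.000661 to 0.0175). The lower genes included the recycling sorting nexin Snx27 at -0.27 (edgeR adjusted p = 0.00877). With 1 library dropped at a time, 4 or 5 were higher and 0 to 4 lower, with 0 when replicate 2 or 3 with lipids was dropped and 4 when replicate 1 of the others was. With library totals alone 7 were higher and 1 lower. Engulfment signalling held 1 higher gene, the focal adhesion kinase Ptk2 (0.40 log2, edgeR adjusted p = 0.017), and 0 lower among 17, with 0 lower also at an unadjusted p below 0.05 by edgeR and by DESeq2 after adjustment. Its call was lost when replicate 1 or 2 with lipids, or replicate 2 of the others, was dropped (edgeR adjusted p = 0.081 to 0.0889). Rac1 and Arpc2 were at 0.14 each and did not pass (edgeR adjusted p = 0.115 and 0.132), though both did without replicate 1 lacking lipids (edgeR adjusted p = 0.0288 and 0.0102) and with library totals alone (0.0225 and 0.0276), and Rac1 shares 51.4% of its exonic bases with Daglb on the other strand. Higher genes numbered 4 with library totals alone and 5 when replicate 1 of the medium lacking lipids was dropped.

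Among proteases that shed receptors from the cell surface, Adam17, which cleaves CD163 and Mertk proteins, was lower at 381 ± 2.1 CPM against 460 ± 6.9 CPM (-0.27 log2, edgeR adjusted p = 0.0057), and Adam9 was higher by 0.29 (edgeR adjusted p = 0.00541). Both calls were lost when replicate 2 with lipids was dropped (edgeR adjusted p = 0.0546 and 0.0532). Their log2 fold changes were then -0.27 and 0.28, and over all genes 219 were higher and 423 lower, against 585 and 877. The list held 4 lower genes when replicate 1 of the medium lacking lipids was dropped. Mmp14 was at -0.42 (edgeR adjusted p = 0.0593) and at -0.48 without replicate 1 lacking lipids, which passed (edgeR adjusted p = 0.0121), and the other 7 genes of this list did not pass either.

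Of 11 haemoglobin and folate handling genes 0 passed with edgeR or with DESeq2 after adjustment. At an unadjusted p below 0.05 by edgeR 0 were higher and 2 lower, and with replicate 1 of the medium lacking lipids dropped 1 was higher and 2 were lower after adjustment. The folate carrier Slc19a1 was at -0.31 log2, Blvra, which reduces biliverdin, at -0.15 and the iron exporter Slc40a1 at 0.28 (edgeR adjusted p = 0.0954, 0.125 and 0.245). Slc40a1 was at 0.53 and passed when replicate 3 lacking lipids was dropped (edgeR adjusted p = 0.000467), and at 0.18 and 0.17 when replicate 1 or 2 was. Slc19a1 was at -0.37 and passed when replicate 1 was dropped (edgeR adjusted p = 0.0192). Hmox1, the haem-degrading enzyme downstream of haemoglobin uptake, averaged 808 ± 32 CPM with lipids against 798 ± 72 CPM.

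Regulators of these receptors held 2 higher and 2 lower genes among 15. Maf, a factor of mature macrophages, stood at 552, 540 and 552 CPM with lipids and at 424, 418 and 460 CPM without (0.34 log2, SE 0.06, edgeR adjusted p = 0.00342), and Irf4, which acts in alternative activation, was higher by 0.88 at 10.7 ± 1.2 CPM. Lower were Egr2 at -1.12 and Nr1h3, the oxysterol receptor LXR alpha, at -0.68 (edgeR adjusted p = 0.000929 and 0.00111). With replicate 1 of the medium lacking lipids dropped, 5 were lower and 4 higher, and with library totals alone 5 were higher.

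**Figure D4:**
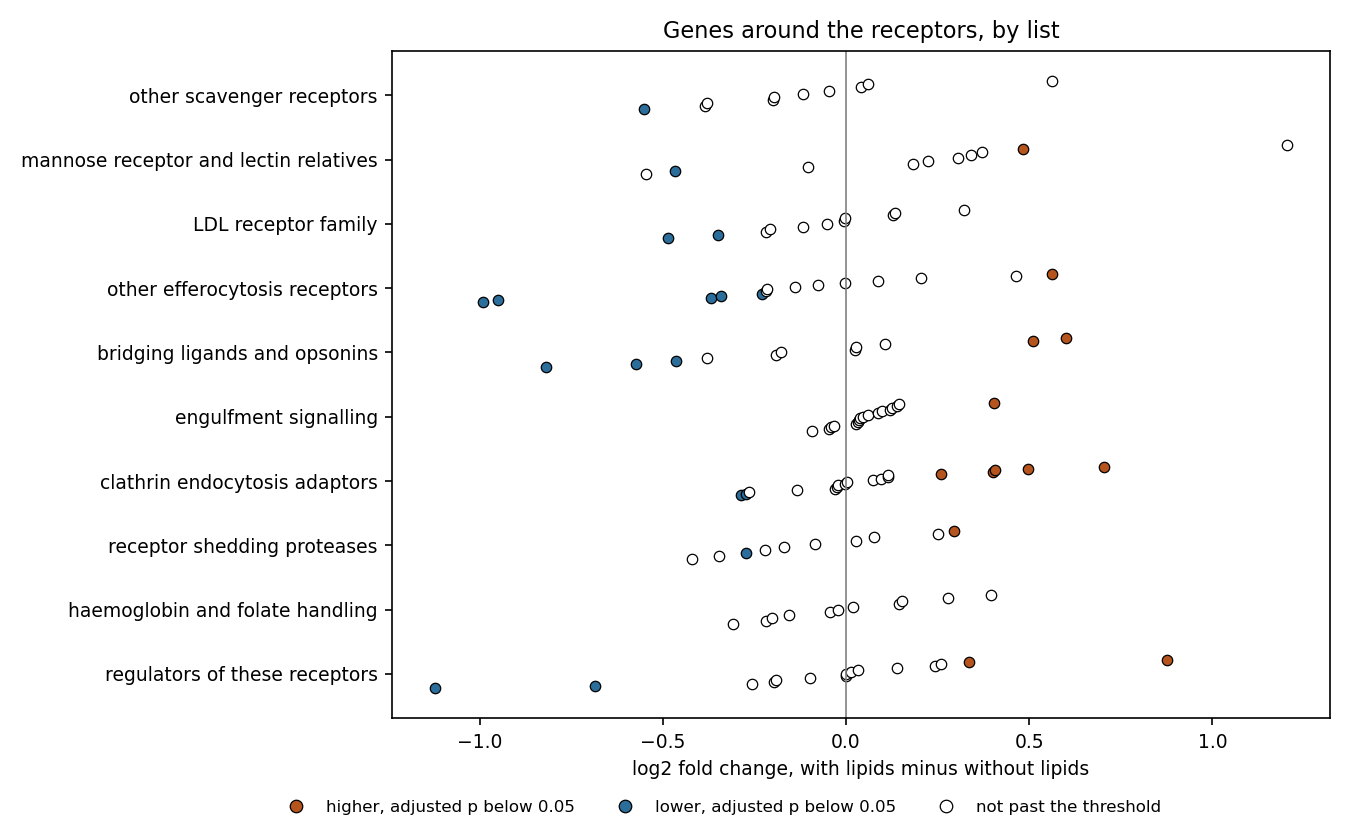
Log2 fold change (x axis, with lipids minus without) of each tested gene in the 10 lists around the receptors, orange where higher and blue where lower at an edgeR adjusted p below 0.05, white where not past the threshold. Clathrin adaptors hold 5 higher genes and other efferocytosis receptors 5 lower genes.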

How the data were processed

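RNA of 6 libraries was prepared with a TruSeq Stranded mRNA kit, per the labels' protocols. The authors deposited raw read counts per Ensembl gene for each library. Per the submitters' processing notes, the build was GRCm38.p4 and the tools included TopHat2 2.1.0, HTSeq and DESeq2, whose roles are not described. The strand setting and the annotation release were not found in the labels, so reads of overlapping genes on opposite strands cannot be told apart with certainty.

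Symbols, coordinates and exon lengths came from GENCODE M21 (GRCm38), which matched 46091 of 46603 identifiers and left 512 unmatched. All 10 receptor genes matched 1 identifier each. Genes were tested with edgeR 4.0.16 (R 4.3.3) after filterByExpr (minimum count 10, total 15) and TMM scaling, by a two-sided quasi-likelihood F test with Benjamini-Hochberg adjustment over 12767 genes at 0.05. A positive log2 fold change means more transcript with lipids. CPM are TMM-scaled, and RPKM divide them by exon length. The steps were tested on simulated counts. Replicates differed by more than sampling noise.

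Alternatives were other scalings and filters, DESeq2 1.42.0, limma 3.58.1 voom with quality weights, the replicate number as a block, stricter thresholds and each library left out. Members, lists and motifs were chosen with earlier results of these data known. Named genes were all 10 receptors, the 3 of smallest p in each list and the 3 protein-coding genes most correlated with the receptor gene of smallest p in each direction, and any further ones were named after their values were seen. Some genes that the counts include are not reported here by name.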

Additional observations from a re-analysis of the deposited data

How the results depend on the processing

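Mrc1 (0.73 to 0.82 log2) and Cd163 (0.84 to 0.96) kept their direction in all 15 alternatives and their call in each, except Mrc1 in the test against a 1.5-fold change. Marco ranged from -2.44 to -1.99, which says nothing of stability where a filter let it in only through its high group, and was at -2.21 with no filter (edgeR adjusted p = 7.15e-10). Unfiltered, the edgeR adjusted p of Mrc1 (9.5e-34) and Cd163 (1.72e-25) also fell at nearly the same fold changes. The test against a 1.5-fold change left 1 receptor gene higher, Cd163, and 1 lower, Marco. It left 25 genes higher and 64 lower over all genes, and 0 higher and 1 lower of the related genes. The number of receptor genes higher and lower was 4 and 2 without the filter, 2 and 2 with DESeq2, and 3 and 2 with voom quality weights. Mertk was at 0.065 by library totals and 0.015 by voom quality weights, and Axl at 0.017 by library totals. Under library totals the median over all genes was 0.074. With 1 library dropped, Mertk ranged from -0.10 to 0.17 (0.012 and 0.0092 without replicates 1 and 2 with lipids) and Axl from -0.115 to 0.0051. The causes of these moves were not tested. Over all genes 1009 were higher and 1243 lower unfiltered, 597 and 903 with DESeq2, and 1450 and 1919 with voom quality weights. By library totals 1241 were higher, and 216 higher and 444 lower passed at 0.01. Related genes higher were 24 by library totals, 20 unfiltered and 24 by voom quality weights, where 35 were lower. Leaving out 1 library gave 2 to 3 receptor genes higher and 1 to 2 lower, 219 to 1566 genes higher and 423 to 1975 lower, and 10 to 22 related genes higher and 11 to 36 lower. Each highest count came from dropping replicate 1 of the medium lacking lipids, and for receptor genes lower also from dropping its replicate 3. The difference in the log2 ratio of Mertk to Axl ranged from -0.054 to 0.22, and that of Mrc1 to Msr1 from 0.27 to 0.63.

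Same-numbered libraries deviated together at correlations of -0.014, -0.087 and 0.176, and differently numbered ones at -0.13 to 0.155. With 3 libraries per group these values cannot settle whether the numbers pair the libraries. With the replicate block 3 receptor genes were higher, with Msr1 added (edgeR adjusted p = 0.0417), and 2 lower, with Lrp1 added (edgeR adjusted p = 0.0365), Mertk was at 0.0056, and 715 genes were higher and 937 lower. The ratio differences stayed at 0.069 and 0.44. Depth limits Marco and Tyro3, both near the detection limit.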

Other observations

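Some transcripts of the uptake of dying cells varied more among the libraries without lipids than between the groups. Apoe, the lipid carrier that Lrp1 binds, was at 475, 740 and 887 CPM without lipids and 544, 524 and 549 CPM with them. The C1q chains, which coat dying cells, were lowest in replicate 1 without lipids, at 393 CPM for C1qa, 1362 for C1qb and 822 for C1qc. The other 2 libraries of that group were at 608 and 643, 1929 and 2101, and 1244 and 1272 CPM, and the libraries with lipids lay between, at 581 to 605, 1795 to 1852 and 932 to 1035 CPM. None of these 4 genes passed the test (edgeR adjusted p = 0.176 for Apoe, 0.678, 0.931 and 0.399 for the chains). Stab1 and Gas6 were also lowest in that library, and Mrc1 was not.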
